A study of Mus musculus with 6 samples.

Results

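Genomic imprinting silences a gene on the chromosome inherited from one parent, so that only the maternal or only the paternal copy is read. Many imprinted genes act on growth before birth: paternally expressed genes such as Igf2 tend to promote growth, and maternally expressed genes such as H19, Cdkn1c and Grb10 tend to restrain it. Most are turned down after birth, and adult skeletal muscle is known for keeping H19. The 10 imprinted genes described here were taken by name from the deposited expression table: H19, Igf2, Meg3, Rian, Mirg, Dlk1, Cdkn1c, Peg3, Plagl1 and Grb10. Each was found on a single row, 10 rows among 52550 mouse genes, and all 10 were among the 13396 genes with enough counts to compare.

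RNA of muscle from 3 male FLExDUX4 mice and 3 male WT littermates was sequenced by QuantSeq, which reads the 3′ ends of polyadenylated transcripts. FLExDUX4 mice are hemizygous for an inverted, lox-flanked human DUX4 gene at the Rosa26 locus, carry no Cre, and express DUX4 at a low, leaky level. WT mice lack the transgene. The labels give quadriceps at 13 weeks of age, whereas the methods give triceps at 2 months. The table has 0 rows for human DUX4, so the transgene gives no check on the labels. Acta1, Ckm and Myh4, which encode skeletal actin, muscle creatine kinase and the fast myosin of type IIb fibers, were at 35944, 12196 and 29655 CPM (counts divided by the scaled library total, times 10 to the power of 6) in FLExDUX4 muscle and at 34707, 11748 and 31026 CPM in WT muscle. The values used are 1 count total for each genotype, 13110125 counts on genes for FLExDUX4 and 18367364 for WT. The table also holds 6 columns of values per sample, but their names match no sample label, and samples were not assigned to genotypes from their values. No replicate check was therefore made: intervals below are 95% intervals of counting error, a single mouse could decide a ratio, and no p-value is given.

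Several members are hosts of microRNAs, short RNAs whose bases 2 to 8, the seed, pair with target messages. Mature sequences from RefSeq (GRCm38.p6), with the seed in capitals, are shown for H19, Igf2, Meg3 and Rian, and for the only RefSeq mature sequences within member spans that share a seed, both from Mirg. They lie at chr7:142577112-142577133, chr7:142577078-142577099 and chr7:142654932-142654952 on the minus strand, and at chr12:109563744-109563765, chr12:109618305-109618326, chr12:109735669-109735692 and chr12:109739132-109739152 on the plus strand.
mmu-miR-675-5p (H19): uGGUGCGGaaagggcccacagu
mmu-miR-675-3p (H19): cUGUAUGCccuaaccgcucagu
mmu-miR-483-3p (Igf2): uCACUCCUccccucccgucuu
mmu-miR-770-3p (Meg3): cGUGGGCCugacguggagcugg
mmu-miR-370-3p (Rian): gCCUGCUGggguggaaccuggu
mmu-miR-453 (Mirg): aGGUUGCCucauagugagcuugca
mmu-miR-496a-5p (Mirg): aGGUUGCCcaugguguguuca

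GENCODE M21 places 22 microRNA genes on the strand of the host within the spans of 5 members: 14 in Mirg, 4 in Rian, 2 in Meg3 and 1 each in H19 and Igf2. The RefSeq table holds hairpins for 20 of these genes. The deposited table has a row for each of the 22, and every one is listed at 0 in both genotypes. The assay reads polyadenylated 3′ ends, so the rows of the hosts are the only measure of these transcripts here, and nothing can be said about the mature microRNAs.

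By level, H19 stood far above the other members in both genotypes. QuantSeq counts a transcript at its 3′ end whatever its length, so CPM were compared between genes without division by length. In WT muscle, H19 was at 594 CPM, Meg3 at 99.4, Cdkn1c at 33.2, Grb10 at 24.9, Igf2 at 18.5 and Peg3 at 14.6 CPM, and the counting intervals of neighbors in this order did not overlap. Rian (4.20 CPM), Plagl1 (2.26), Mirg (1.19) and Dlk1 (0.593) followed, and the intervals of Plagl1 and Mirg overlapped, as did those of Mirg and Dlk1. In FLExDUX4 muscle the order began with H19 (847 CPM), Meg3 (103) and Cdkn1c (31.9), but Peg3 (24.5 CPM) stood above Igf2 (17.3), and Dlk1 (2.70) above Mirg (1.54) and Plagl1 (0.925). There the intervals of Cdkn1c and Grb10, of Grb10 (26.3 CPM) and Peg3, and of each neighboring pair from Rian (3.47 CPM) down overlapped.

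**Figure D1:**
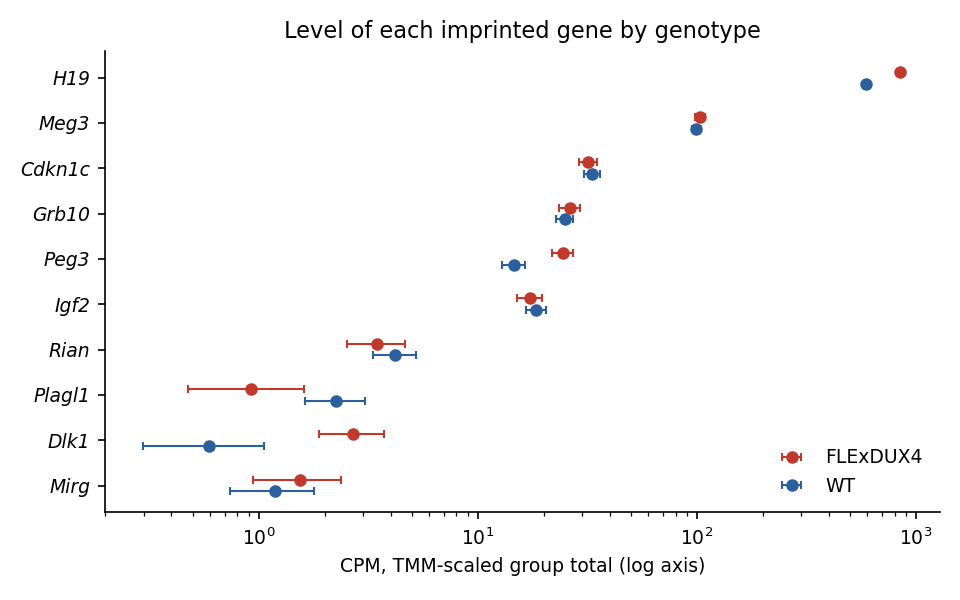
Level of each imprinted gene in CPM (log axis) from the TMM-scaled total of each genotype, with 95% Poisson intervals of counting error and no replicate spread. H19 stands at 847 CPM in FLExDUX4 and 594 CPM in WT muscle, while the intervals of Meg3, Cdkn1c, Grb10, Igf2, Rian and Mirg overlap between genotypes.

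The comparison of genotypes asked which genes differ in young muscle of the model. H19, Peg3 and Dlk1 were higher in FLExDUX4 muscle, by 1.42-fold, 1.68-fold and 4.42-fold, and Plagl1 was 2.38-fold lower. The other 6 members, Meg3, Cdkn1c, Grb10, Igf2, Rian and Mirg, had counting intervals that held 0. A gene was called when its log2 ratio of group totals was at least 0.5 in size and its interval excluded 0. By this rule 3 members were called higher and 1 lower, against 11.3% of all genes compared in each direction. Dlk1 passed the count filter through FLExDUX4 alone, where it is high, and without it 2 members were called higher and 1 lower. The share called depended on depth: 38.0% of the genes with fewer than 100 counts over both genotypes were called in either direction, against 15.7% of those with at least 100 and 0.847% (2 of 236) of those with at least 10000. Dlk1 and Plagl1 belong to the first class, Peg3 to the second and H19 to the third. The median log2 ratio of the 10 members was 0.07, against -0.001 over all genes compared; 6 members were above 0, and 4 with spike-in scaling. In whole muscle, a change in the number of cells of a type and a change in RNA per cell cannot be told apart.

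**Figure D2:**
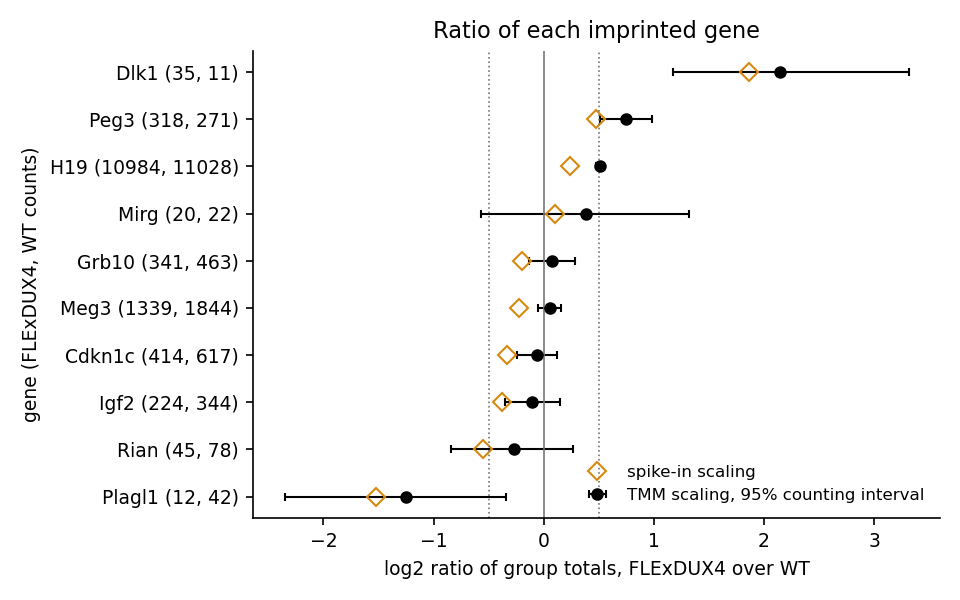
Log2 ratio of FLExDUX4 to WT group totals for each member, with the counts of both genotypes beside its name; black points with bars are TMM-scaled ratios with 95% counting intervals, open diamonds the same ratios scaled to the spike-in totals, and dotted lines mark 0.5 and -0.5. The intervals of Dlk1, Peg3, H19 and Plagl1 exclude 0; Meg3 and Grb10 are slightly above 0 with TMM scaling and below 0 with spike-in scaling, which moves every gene by -0.28.

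H19, a maternally expressed noncoding RNA (chr7:142575529-142578143 of GRCm38, minus strand), had 10984 counts in FLExDUX4 mice and 11028 in WT mice, from libraries of smaller total in FLExDUX4 mice. After scaling this was 847 against 594 CPM, a log2 ratio of 0.51 (interval 0.47 to 0.55), at the edge of the rule. The size of at least 0.5 was lost with upper quartile scaling (0.495), with gene totals (0.481) and with a filter of at least 10 counts in each total (0.496), and the ratio was 0.23 when scaled to the spike-ins. Among the 236 genes with at least 10000 counts, a class set after these values were seen, only H19 and Glul, the glutamine synthetase gene (1.07, interval 1.02 to 1.13), were called. H19 made up 0.0838% of all counts on genes in FLExDUX4 mice and 0.0600% in WT mice.

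Igf2, the paternally expressed fetal growth factor that shares an imprinting control region and enhancers with H19 (chr7:142650766-142666816, minus strand), had 224 counts in FLExDUX4 mice and 344 in WT mice. Its levels were 17.3 and 18.5 CPM and its log2 ratio was -0.10 (interval -0.35 to 0.14). There were 49.0 H19 counts per Igf2 count in FLExDUX4 mice and 32.1 in WT mice. This ratio of ratios, which needs no scaling between genotypes, was 0.61 on the log2 scale (interval 0.36 to 0.87).

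Genes around H19 were compared next. Of the 7 compared genes that start within 150 kb of the H19 start, 0 were called. Their depths differ, and so do the shares of all genes called at those depths: 0.847% with at least 10000 counts (Tnni2, Tnnt3 and Nctc1), 15.7% with at least 100 (Igf2, Lsp1 and Prr33 besides) and 38.0% with fewer (Mrpl23). The count of 0 does not set this stretch apart. Nctc1, a noncoding RNA of muscle between H19 and the troponin genes, had 5608 and 8263 counts, or 432 and 445 CPM, a log2 ratio of -0.04 (interval -0.09 to 0.01). H19 per Nctc1 was 1.96 in FLExDUX4 mice and 1.33 in WT mice, a log2 difference of 0.55 (interval 0.49 to 0.62). The fast troponin genes Tnni2 and Tnnt3 had log2 ratios of -0.05 (interval -0.06 to -0.04) and -0.02 (interval -0.03 to -0.01). The 7 ratios lay between -0.22 (Prr33) and 0.11 (Lsp1), and all 7 were below 0 with spike-in scaling. Below the count filter, Gm33148, the gene with any count whose start lies nearest to that of H19, had 0 counts in FLExDUX4 mice and 12 in WT mice. Set against 3 counts in the FLExDUX4 total it was 2.80-fold lower, and the upper end of its log2 interval was -0.96. Ins2, an insulin gene, had 4 and 0 counts, with an interval that held 0.

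**Figure D3:**
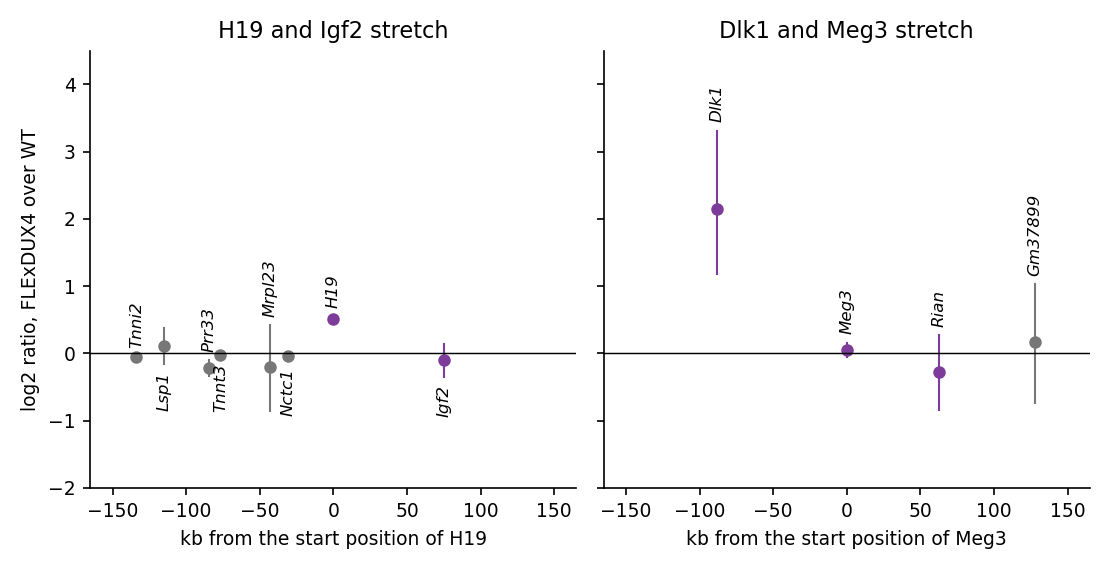
Log2 ratios with 95% counting intervals (TMM scaling) of the compared genes that start within 150 kb of the start position of H19 (left) or Meg3 (right), by distance in kb; members are purple and other genes gray. On the left H19 is at 0.51 and Nctc1 at -0.04; on the right Dlk1 is at 2.14, while the interval of Meg3 holds 0, and its ratio is below 0 with spike-in scaling.

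On the other stretch, the Dlk1-Dio3 cluster, paternally expressed Dlk1 is followed by the maternally expressed noncoding RNAs Meg3, Rian and Mirg. Dlk1 (chr12:109452823-109463336, plus strand) encodes a membrane protein with EGF-like repeats that restrains adipocyte differentiation. It had 35 counts in FLExDUX4 mice and 11 in WT mice, or 2.70 and 0.593 CPM. Relative to WT this was 2.14 on the log2 scale (interval 1.18 to 3.31), the highest value among the members, and 1.87 with spike-in scaling. It was also called when at least 10 counts in each total were required.

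Meg3 (chr12:109541001-109571726, plus strand), the most abundant RNA of the cluster in muscle, had 1339 counts in FLExDUX4 mice and 1844 in WT mice, or 103 and 99.4 CPM. Relative to WT this was 0.05 on the log2 scale (interval -0.05 to 0.16), and -0.22 with spike-in scaling. Rian (chr12:109603940-109661716, plus strand), which hosts small nucleolar RNAs and microRNAs, had 45 and 78 counts, a log2 ratio of -0.27 (interval -0.84 to 0.27). Mirg (chr12:109729764-109749460, plus strand) had 20 and 22 counts, a log2 ratio of 0.38 (interval -0.57 to 1.32). With spike-in scaling Rian was at -0.55 and was called lower, and Mirg was at 0.11. With TMM scaling, a difference in either was not detectable at these depths.

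The maternal RNAs of the cluster were also compared with each other. Meg3 gave 95.4% (interval 94.1 to 96.4) of the summed counts of Meg3, Rian and Mirg in FLExDUX4 mice and 94.9% (93.8 to 95.8) in WT mice. Rian was at 3.36 counts per 100 Meg3 counts in FLExDUX4 mice and at 4.23 in WT mice, a log2 difference of -0.33 (interval -0.90 to 0.23). Mirg was at 1.49 and 1.19 counts per 100 Meg3 counts, a log2 difference of 0.32 (interval -0.63 to 1.27), and both intervals are wide. Dlk1, in contrast, was at 2.61 and 0.597 counts per 100 Meg3 counts, a log2 difference of 2.13 (interval 1.11 to 3.26).

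Among the imprinted transcriptional regulators, Peg3 and Plagl1 lay on opposite sides. Peg3 (chr7:6703892-6730431, minus strand), a paternally expressed zinc finger gene, had 318 counts in FLExDUX4 mice and 271 in WT mice, or 24.5 and 14.6 CPM. Relative to WT this was 0.75 on the log2 scale (interval 0.51 to 0.99), and 0.47 with spike-in scaling. Zim1, the maternally expressed gene beside it, had 31 and 29 counts and a log2 ratio of 0.61 (interval -0.17 to 1.39). Peg3 per Zim1 was 10.3 in FLExDUX4 mice and 9.34 in WT mice, a log2 difference of 0.13 (interval -0.69 to 0.95), so that no difference between these neighbors was detectable.

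Plagl1 (chr10:13060504-13131694, plus strand), which encodes the paternally expressed zinc finger factor ZAC1, had 12 counts in FLExDUX4 mice and 42 in WT mice. Its levels were 0.925 and 2.26 CPM, a log2 ratio of -1.25 (interval -2.35 to -0.34), and -1.53 with spike-in scaling. There were 26.5 Peg3 counts per Plagl1 count in FLExDUX4 mice and 6.45 in WT mice, a log2 difference of 2.04 (interval 1.05 to 3.13) that rests on few Plagl1 counts. The genes were paired after their ratios were seen, so this value restates those ratios and is no further result.

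Promoter windows, from 250 bases before to 50 after an annotated start, were taken from RefSeq (GRCm38.p6) and matched 8 of the 10 members by symbol, with 13 windows. H19 and Cdkn1c had no entry. The windows of the called members with an entry are shown, Peg3 at chr7:6730370-6730669 (minus strand), Plagl1 at chr10:13090582-13090881 (plus strand) and Dlk1 at chr12:109452573-109452872 (plus strand). Capitals mark TGCCGC on either strand, the letters that ZFP57, a keeper of imprints, recognizes when methylated.
Peg3: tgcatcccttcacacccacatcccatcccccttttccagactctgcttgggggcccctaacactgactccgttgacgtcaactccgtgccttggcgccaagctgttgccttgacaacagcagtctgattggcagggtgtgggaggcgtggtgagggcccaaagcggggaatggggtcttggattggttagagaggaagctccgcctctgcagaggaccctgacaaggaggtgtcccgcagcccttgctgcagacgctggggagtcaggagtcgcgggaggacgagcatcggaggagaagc
Plagl1: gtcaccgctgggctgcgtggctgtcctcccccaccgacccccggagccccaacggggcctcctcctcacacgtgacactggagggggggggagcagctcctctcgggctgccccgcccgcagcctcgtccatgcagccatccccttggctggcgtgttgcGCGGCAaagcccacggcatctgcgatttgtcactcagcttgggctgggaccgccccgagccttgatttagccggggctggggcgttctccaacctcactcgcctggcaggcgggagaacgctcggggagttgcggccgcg
Dlk1: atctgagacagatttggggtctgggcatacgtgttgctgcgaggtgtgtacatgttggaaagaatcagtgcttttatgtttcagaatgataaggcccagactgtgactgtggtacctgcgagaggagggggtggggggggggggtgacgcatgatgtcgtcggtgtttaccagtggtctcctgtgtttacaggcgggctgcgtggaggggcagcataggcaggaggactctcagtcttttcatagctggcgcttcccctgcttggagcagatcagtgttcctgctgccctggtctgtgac

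TGCCGC was found in 4 of the 13 windows, 1 each of Plagl1, Igf2, Grb10 and Meg3, against 11.6% of all 32851 windows of the same length. Of the called members with a window, Plagl1 held it, while Peg3 and Dlk1 did not. The 3 printed windows differ in CpG content, with 26 CpG in Plagl1, 13 in Peg3 and 9 in Dlk1, against a median of 7 over all windows. These are descriptions of the letters in a window and not of binding or methylation.

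Of the growth restrainers, Cdkn1c and Grb10 were close to WT levels. Cdkn1c (chr7:143458339-143461050, minus strand), which encodes the cyclin-dependent kinase inhibitor p57, had 414 counts in FLExDUX4 mice and 617 in WT mice, or 31.9 and 33.2 CPM. The difference on the log2 scale was -0.06 (interval -0.24 to 0.12). Grb10 (chr11:11930508-12038683, minus strand), an adaptor that dampens insulin and IGF1 receptor signaling, had 341 and 463 counts, or 26.3 and 24.9 CPM. The difference on the log2 scale was 0.08 (interval -0.13 to 0.28), and -0.20 with spike-in scaling. With TMM scaling, both intervals leave out a difference as large as that of H19.

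The share of the members' own counts needs no scaling. H19 gave 80.0% (interval 79.3 to 80.7) of the 13732 counts of the 10 members in FLExDUX4 mice and 74.9% (74.2 to 75.6) of 14720 in WT mice. Among the 9 members without H19, Peg3 gave 11.6% (10.4 to 12.8) in FLExDUX4 mice and 7.34% (6.52 to 8.23) in WT mice, and Dlk1 gave 1.27% (0.889 to 1.77) and 0.298% (0.149 to 0.532). Plagl1 gave 0.437% (0.226 to 0.762) and 1.14% (0.821 to 1.53). Meg3 gave 48.7% (46.8 to 50.6) and 49.9% (48.3 to 51.6), and its intervals overlapped.

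**Figure D4:**
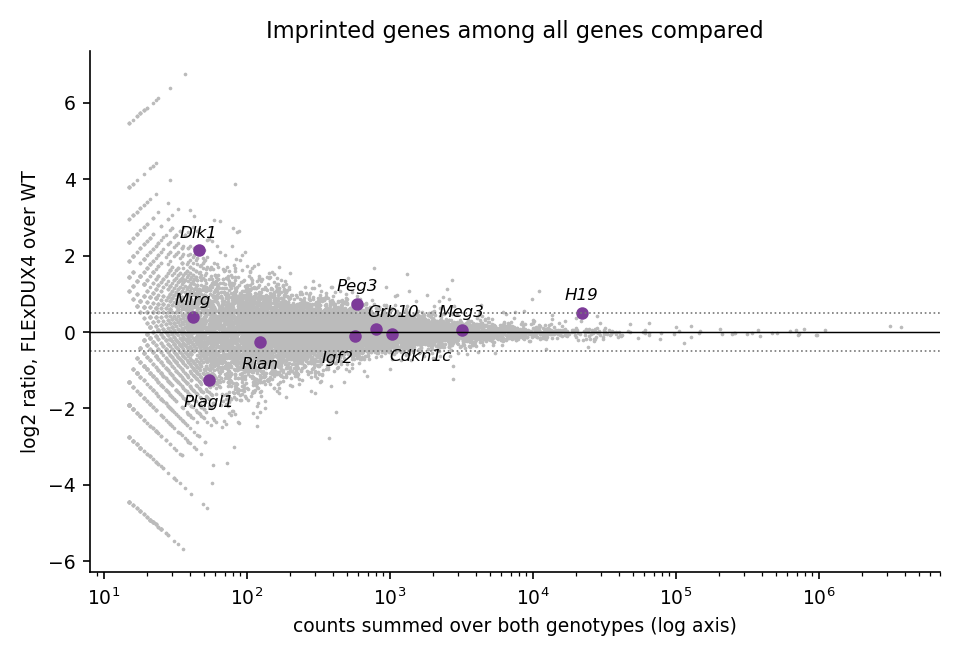
Log2 ratio of FLExDUX4 to WT group totals (TMM scaling) against the counts of a gene summed over both genotypes (log axis) for the 13396 genes compared (gray), with the members in purple; dotted lines mark 0.5 and -0.5. H19, at 22012 summed counts, is at the upper edge of genes of its depth, whereas Dlk1 and Plagl1, at 46 and 54 summed counts, lie where gray points spread widely.

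A further 47 imprinted genes were listed, of which 46 had a row, 8 were at 0 in both genotypes and 26 were compared. Of the 26, 5 passed the count filter through a single genotype, and 4 of these, Sfmbt2, Peg10, Mest and Mkrn3, passed through their WT counts alone, the genotype where they are high, and are left out of the counts below. Slc22a3 passed through FLExDUX4 alone and is left out too. The other 21 had at least 10 counts in each total. Of these 21, 10 were higher and 11 lower, with 0 called higher and 3 (Ndn, Sgce and Zdbf2) called lower. Of all 12007 genes with at least 10 counts in each total, 1236 were called higher and 989 (8.24%) lower. Among the 21, the 12 genes listed as paternally expressed had a median log2 ratio of -0.29, with 5 higher and 7 lower. The 9 listed as maternally expressed had a median of 0.02, with 5 higher and 4 lower. Over all genes of this depth the median was 0.02. The 3 called genes are listed as paternally expressed, and no test of a difference between parental origins was made. The counts do not tell the parental alleles apart. The labels of parental origin come from the gene list and were not measured in this muscle.

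Sgce, which encodes epsilon-sarcoglycan of the muscle membrane, had 77 counts in FLExDUX4 mice and 213 in WT mice and a log2 ratio of -0.95 (interval -1.35 to -0.57). Ndn, a MAGE family gene, had 46 and 98 counts and a log2 ratio of -0.57 (interval -1.11 to -0.06). Zdbf2, a zinc finger gene, had 17 and 67 counts and a log2 ratio of -1.43 (interval -2.32 to -0.68). Of the genes that passed through WT alone, Mest had 2 and 25 counts, a log2 ratio of -2.83 (interval -6.25 to -1.12). Peg10, a gene derived from a retrotransposon that lies next to Sgce, had 1 and 15 counts, a log2 ratio of -2.85 (interval -8.79 to -0.69). Sfmbt2, with 0 and 23 counts, was 5.36-fold lower when set against 3 counts in the FLExDUX4 total. The upper end of its log2 interval was -2.01.

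The most counted of the other imprinted genes stayed near WT levels. Gnas, which encodes the stimulatory G protein alpha subunit, was at 625 CPM in FLExDUX4 and 617 CPM in WT muscle, a log2 ratio of 0.02 (interval -0.02 to 0.06). Ube3a, a ubiquitin ligase, was at 0.05 (interval -0.02 to 0.12), and Kcnq1ot1, the noncoding RNA of the domain that holds Cdkn1c, at 0.07 (interval -0.04 to 0.17). Cobl was at 0.16 (interval 0.02 to 0.30) and Slc38a4 at 0.11 (interval -0.03 to 0.25). With spike-in scaling all 5 were below 0, from -0.26 for Gnas to -0.11 for Cobl.

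**Figure D5:**
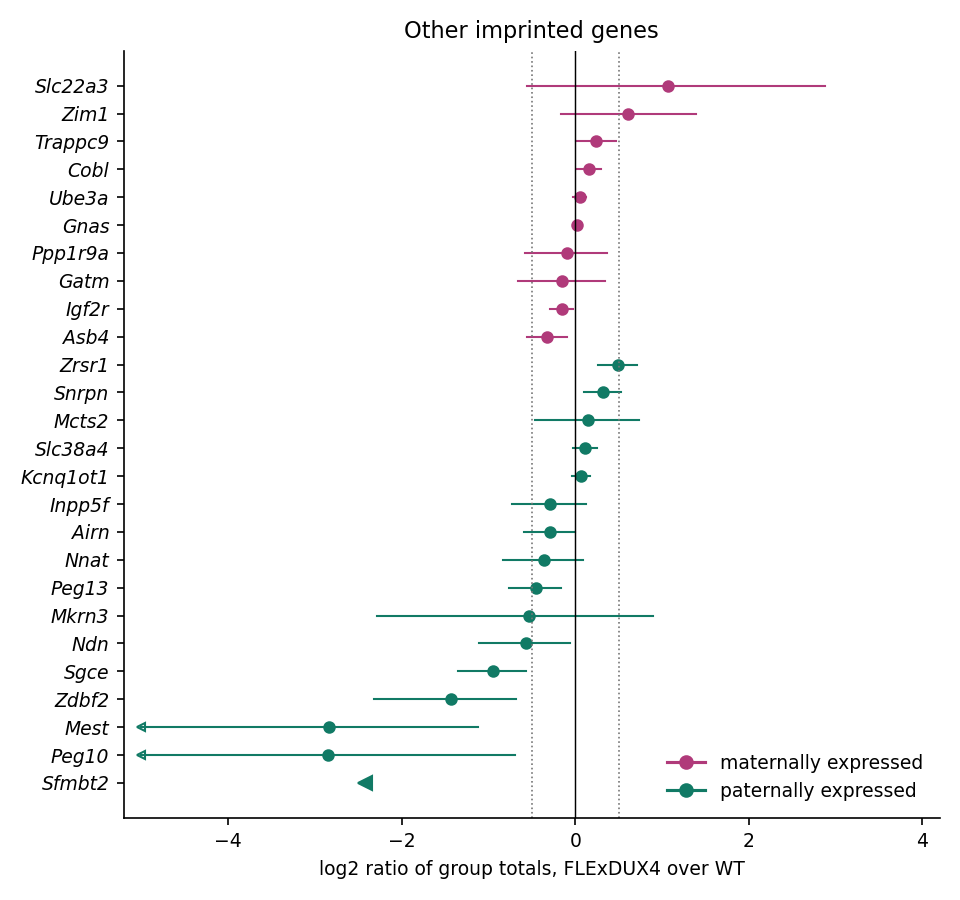
Log2 ratio of FLExDUX4 to WT group totals (TMM scaling) with 95% counting intervals for the 26 other imprinted genes compared, maternally expressed in magenta and paternally expressed in green; open arrowheads mark intervals that go beyond the axis, the filled triangle is the bound for Sfmbt2, and dotted lines mark 0.5 and -0.5. Ndn, Sgce and Zdbf2 are called lower with at least 10 counts in each total, whereas Sfmbt2, Peg10 and Mest passed the count filter through WT alone. With spike-in scaling 4 of the 26 genes are higher.

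Igf2 acts through the IGF1 and insulin receptors, and IGF2R clears it. Of 20 genes of this axis, 16 were compared, 9 higher and 7 lower, with a median log2 ratio of 0.07. Of the 16, 1 was called. This stands against 22.6% of all genes compared called in either direction, and 15.7% of those with at least 100 counts, which most of the 16 reach. The called gene was Irs1, an adaptor of both receptors, with 607 counts in FLExDUX4 mice and 1396 in WT mice. Its log2 ratio was -0.68 (interval -0.82 to -0.55). Igf1, the postnatal growth factor, was at 36.3 and 35.7 CPM, a log2 ratio of 0.03 (interval -0.15 to 0.20). Igf1r was at 0.23 (interval 0.06 to 0.40), and Igf2r, itself imprinted and maternally expressed, at -0.16 (interval -0.29 to -0.02). Igf2r counts per Igf2 count were 3.34 in FLExDUX4 mice and 3.47 in WT mice. Among the binding proteins, Igfbp5 was at -0.15 (interval -0.22 to -0.08), Igfbp4 at 0.12 (interval -0.02 to 0.26) and Igfbp7 at 0.23 (interval 0.08 to 0.39). With spike-in scaling, 2 of the 16 were higher, and Igf1, Igf1r, Igfbp4 and Igfbp7 were below 0.

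Markers of other cells in the muscle were summed beside these genes, and their part in the ratios of the members was not tested. Counts of called markers stand against 22.6% of all genes compared that were called in either direction. By depth this share was 38.0% below 100 counts, 15.7% with at least 100 and 0.847% with at least 10000, the class of most muscle fiber markers. Adipocyte markers came to 164 CPM in FLExDUX4 and 98.0 CPM in WT muscle, with 5 of 6 higher and 3 called. The called markers were Adipoq (0.70, interval 0.46 to 0.95), Cfd (0.88, interval 0.76 to 0.99) and Retn (0.69, interval 0.18 to 1.20). Cidec was at 0.20, while Lep was lower, at -0.82 (interval -1.95 to 0.15). Fibroblast markers were at 1911 and 1772 CPM, and the most counted, Dcn and Gsn, were at 0.04 and 0.05. Of the 8 fibroblast markers, 1 was called, Col1a1 (0.53, interval 0.47 to 0.60). Satellite cell markers were at 42.5 and 47.5 CPM, with 3 of 7 higher and 4 lower. The most counted of them, Sdc4 and Cdh15, were at 0.01 and -0.02, and 2 were called lower, Pax7 (-0.82, interval -1.44 to -0.25) and Heyl (-1.43, interval -2.16 to -0.79). Regenerating fiber markers were at 20.8 and 16.3 CPM, with Ncam1 at 0.20, Myh8 at 0.28 and Myh3 at -0.11, and 1 of 4 was called, Myog (1.15, interval 0.49 to 1.85). Below the count filter, Mymk had 8 and 1 counts (3.02, interval 0.62 to 8.99) and Mymx was at 0 in both genotypes.

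Endothelial markers were at 389 and 394 CPM, with Fabp4 at 0.11, Pecam1 at 0.06 and Kdr, called lower, at -0.56. Tenocyte markers were at 175 and 166 CPM, with Fmod at 0.09, Thbs4 at 0.08 and Chad at 0.29, and Scx (-1.01) was called lower. Below the count filter, Comp had 0 and 10 counts, and the upper end of its log2 interval was -0.65. Macrophage markers were at 74.1 and 78.3 CPM, with 2 of 6 higher and 4 lower and a median log2 ratio of -0.32. Lyz2 was at -0.02, Csf1r at 0.01 and C1qa at 0.08, and C1qb (-0.62) was called lower. Adgre1 was at -0.66 and Cd68 at -0.64, with intervals that held 0. No marker was called among smooth muscle and pericyte (346 and 319 CPM), Schwann cell (145 and 137 CPM), erythroid (1270 and 1013 CPM) or muscle fiber markers. Muscle fiber markers had log2 ratios from -0.19 to 0.05. All 5 smooth muscle and pericyte markers were higher (0.02 to 0.49), as were all 4 erythroid markers (0.25 to 0.36). Scaled to the spike-ins, 2 of the 5 and 3 of the 4 were higher. With spike-in scaling, 4 of 6 adipocyte and 3 of 8 fibroblast markers were higher, Adipoq, Retn and Col1a1 were at 0.43, 0.41 and 0.26, and Sdc4, Dcn, Gsn, Fabp4, Pecam1, Fmod, Thbs4, Csf1r, C1qa, Cidec and Ncam1 were below 0.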

How the data were processed

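Muscle RNA of 3 FLExDUX4 and 3 WT mice was sequenced by QuantSeq. According to the submitters' processing notes, the tools included cutadapt 1.16, STAR 2.5.3a, featureCounts 1.6.2 and DESeq2, and the methods name GRCm38 with spike-in sequences as the reference. The values used are the deposited raw counts per gene, which the authors summed over each genotype without normalization. A further 6 columns of values per sample carry names that match no label and were not used, since samples were not assigned to a genotype from their values, nor were the columns with the authors' mean level, fold changes, errors and p-values.

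The planned edgeR quasi-likelihood test needs values per sample and was not run, so ratios of totals are given. Totals on genes, without the 99 spike-ins, received TMM factors (edgeR 4.0.16 under R 4.3.3) computed from genes that passed filterByExpr. Log2 ratios use a pseudocount of 0.5. Intervals (95%, Clopper-Pearson for ratios and shares, Poisson for levels, exact conditional for ratios of genes; Python 3.11.15, scipy 1.17.1) cover counting error only, and 3 counts is the floor. The fitting code was tested on simulated data.

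Members and lists were chosen with earlier results of these data known. Named were all members, all called genes of the imprinted and IGF lists with up to 6 of the most counted others, and up to 3 of the most counted markers per list. Ckm, neighbors, gene pairs, Zim1, Glul and the remaining markers (Retn, Lep, Heyl, Myog, Mymk, Mymx, Scx, Comp, C1qb, Adgre1 and Cd68) were named after their values were seen. Spans are from GENCODE M21 on GRCm38, and all 10 starts equal the deposited ones. How reads in overlapping genes were assigned is not given in the sources used here. Rian overlaps Gm26945 (5 and 1 counts) on its strand, and the other overlapping genes with a row were at 0. Alternatives were other scalings, filters, pseudocounts and sizes of call.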

Additional observations from a re-analysis of the deposited data

How the results depend on the processing

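No paired analysis was possible because the columns of values per sample match no label by name and samples were not assigned from their values, so the replicate block, leaving out each replicate and DESeq2 were not run. Under other scalings, filters and a pseudocount of 1, 64 values of the 10 members stayed inside the counting interval of the reported value. The other 6 came from spike-in scaling, which shifted every gene by -0.28 on the log2 scale: H19 was at 0.23, Peg3 at 0.47, Meg3 at -0.22, Grb10 at -0.20, Cdkn1c at -0.33 and Igf2 at -0.38. An unequal amount of spike-in and an unequal amount of mRNA cannot be told apart here. The 4 called members became 3 with upper quartile scaling, gene totals and at least 10 counts in each total, where H19 was lost, and 2 (Dlk1 and Plagl1) with a size of at least 1. With spike-in scaling 3 were called, Dlk1, Plagl1 and Rian.

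The 6 called among the other imprinted genes became 11 with spike-in scaling, 11 (2 higher, 9 lower) without filtering, 3 (Ndn, Sgce and Zdbf2) where both totals had to reach 10 counts, and 14 by the interval alone. The single called IGF axis gene became 3 with spike-in scaling, 0 with a size of at least 1 and 7 by the interval alone. The interval-alone rule was added after seeing the data. Depth limits Rian, Mirg, Dlk1 and Plagl1 most, with 42 to 123 counts over both genotypes.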

Other observations

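Some imprinted genes had too few counts for the comparison but were seen in one genotype only or nearly so. In the Dlk1-Dio3 cluster, Rtl1, a paternally expressed gene derived from a retrotransposon, had 0 counts in FLExDUX4 mice and 7 in WT mice. Set against 3 counts in the FLExDUX4 total it was 1.63-fold lower, and the upper end of its log2 interval was -0.01. In the same way, Nespas, an antisense RNA of the Gnas domain, had 0 and 11 counts and was 2.56-fold lower (upper end -0.81). Nap1l5 had 0 and 12 counts and was 2.80-fold lower (upper end -0.96). Peg12 went the other way, with 8 and 0 counts, 3.81-fold higher when set against 3 counts in the WT total (lower end of the log2 interval 1.29). Kcnq1, whose domain holds Cdkn1c, had 8 and 2 counts, a log2 ratio of 2.28 (interval 0.19 to 5.79). These genes were picked after their values were seen.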
